A study of Homo sapiens with 12 samples.

Results

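Replication-dependent histone genes were chosen by name, as every gene of the S371A table whose symbol begins with HIST1H, HIST2H, HIST3H or HIST4H, leaving out the numbered pseudogenes. This gave 77 genes of the 58302 listed there, and the same gene IDs were read in the S55A table, which held all 77 among 50868 genes. They comprised 6 H1, 17 H2A, 24 H2B, 15 H3 and 15 H4 genes, of which 55 lie on chromosome 6, 21 on chromosome 1 and 1 on chromosome 12. By annotation 70 were protein-coding, and the others were 6 pseudogenes and 1 gene with no type given.

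The libraries were made from SW1990, a human pancreatic adenocarcinoma line grown out of a spleen metastasis, after 24 h in DMEM without glucose. S371A cells carried rPHGDH with the S371A substitution and were paired with WT-1 cells carrying wild-type rPHGDH; S55A cells carried the S55A substitution and were paired with WT-2. PHGDH is the first enzyme of serine synthesis from glucose intermediates, and the prefix of the expressed form, the number of clones and the state of the cells' own PHGDH are not stated in the labels. Each group had 3 libraries, and all 4 groups shared the line and the glucose-free medium. The labels do not say whether replicates were separate cultures, so the tests weigh effects against a library-to-library spread that may be only technical. Each mutant was compared only with the wild type of its own table.

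Core histones H2A, H2B, H3 and H4 form the nucleosome, and H1 binds the linker DNA between nucleosomes. Replication-dependent histone genes are switched on in S phase, and most of their mRNAs end without a poly(A) tail, just after a conserved stem-loop that the stem-loop binding protein SLBP holds. Some of these genes also give longer polyadenylated transcripts that read past the stem-loop, a form known from cells that have left the cycle or are differentiating.

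Total counts ranged over the 12 libraries between 13667033 and 19240270, so that 3 counts in a library corresponded to 0.155 to 0.218 CPM (counts scaled to the library total). The epithelial markers EPCAM, CDH1, KRT8, KRT18, KRT19 and CLDN4 were all measured, at summed levels of 5463.2 to 6422.2 CPM in S371A, 4648.6 to 5083.5 in WT-1, 4180.6 to 4450.4 in S55A and 2813.5 to 3115.8 in WT-2. Summed endothelial markers stayed at or below 0.508 CPM and leukocyte markers at or below 2.25 CPM in every library, with CD3E at 0 throughout. Fibroblast markers summed to 10.3 to 12.7 CPM in S371A against 21.5 to 23.9 in WT-1, and to 14.9 to 26.9 CPM in S55A against 9.5 to 19.0 in WT-2, with PDGFRB the most abundant of them on average and COL3A1, COL1A2, DCN and LUM at 0 in all libraries of the first experiment. The part of these marker levels in the histone values was not tested. PHGDH itself, which counts the cells' own and the expressed form together where the sequence is shared, was 201.2 ± 20.7 CPM in S371A and 473.8 ± 19.6 in WT-1, and 356.5 ± 9.13 in S55A and 726.2 ± 17.5 in WT-2 (SD, n = 3 each).

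The stem-loop is what separates this family from other mRNAs, so it is shown for the genes the results turn on. The motif searched was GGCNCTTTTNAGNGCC on the transcript strand of the GENCODE 29 (GRCh38) transcript models, and 34 of the 77 genes held it in at least 1 model. Among all 19922 protein-coding genes of that annotation 35 held it (0.176%), and 31 of those 35 were histone genes of this set. The next lines give the transcript strand as DNA, 5′ to 3′, with the 16-base stem-loop in capitals between 5 flanking bases on each side.
HIST1H2AC: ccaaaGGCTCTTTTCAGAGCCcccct
HIST2H2AA4: caaaaGGCTCTTTTCAGAGCCaccca
HIST1H2BC: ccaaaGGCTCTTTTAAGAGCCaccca
HIST1H2BD: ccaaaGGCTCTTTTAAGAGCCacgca
HIST2H2BE: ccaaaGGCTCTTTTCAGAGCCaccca
HIST1H4H: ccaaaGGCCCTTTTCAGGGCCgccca
HIST2H4A: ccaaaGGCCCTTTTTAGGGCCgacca
The capitals lie at chr6:26124669-26124684 (plus strand) for HIST1H2AC, chr1:149851574-149851589 (plus) for HIST2H2AA4, chr6:26123472-26123487 (minus) for HIST1H2BC, chr6:26158587-26158602 (plus) for HIST1H2BD, chr1:149886188-149886203 (minus) for HIST2H2BE, chr6:26285131-26285146 (minus) for HIST1H4H and chr1:149833032-149833047 (plus) for HIST2H4A, each in the 3′ untranslated region. The most common form, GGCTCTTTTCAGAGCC, occurred in 18 genes, and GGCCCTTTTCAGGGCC in 5. HIST1H1C and HIST1H2BK are modelled without any 3′ untranslated region, as are 34 of the 70 protein-coding members, so for these genes the absence of the motif says nothing.

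A transcript model was counted as poly(A)-type where AATAAA or ATTAAA stood in its last 40 bases and it either held no stem-loop or ran more than 50 bases beyond it. By this rule 23 of the 77 genes had an annotated poly(A)-type transcript, among them HIST1H2AC, HIST2H2BE, HIST1H2BC, HIST1H2BD, HIST1H2BN, HIST1H3E, HIST1H4H, HIST2H4A and HIST2H4B. The models of HIST1H2AC ran 1114 and 1128 bases past the loop and that of HIST2H2BE 1729 bases, while the single model of HIST2H2AA4 ended 35 bases after it and is counted here as the stem-loop type. That HIST2H2AA4 model does hold AATAAA or ATTAAA in its last 40 bases, so only the limit of 50 bases sets it apart. A further 3 genes without a poly(A)-type model, HIST1H1C, HIST1H2BK and HIST4H4, are known from other work to give polyadenylated mRNA. Whether poly(A) RNA was selected for these libraries is not stated in the labels.

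The histone genes were barely covered. All 77 together took 0.00825% to 0.00913% of the counts in S371A libraries, 0.00657% to 0.0069% in WT-1, 0.00755% to 0.0112% in S55A and 0.00511% to 0.00577% in WT-2. Of the 77, 66 had at least 1 count in the S371A table and 22 had enough to be tested there; 61 had a count in the S55A table and 22 were tested. The tested genes shared between the tables numbered 21, 23 were tested in at least 1 table, 54 were tested in neither, and 10 had 0 counts in all 12 libraries. Among the 54 no gene had more than 13 counts in any library of the S371A table, or more than 18 in any library of the S55A table.

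More of the genes with a polyadenylated form could be tested, but transcript type and extent of the gene model cannot be told apart here. Of the 23 genes with an annotated poly(A)-type transcript 16 were tested in at least 1 table, as were all 3 known to be polyadenylated from other work, against 4 of the 51 remaining genes. Those 4 were HIST2H2AA3, HIST2H2AA4, HIST3H2BB and HIST2H2BC (ENSG00000203819). The last of these has no transcript in GENCODE 29, so the rule could not be applied to it. Among the 16, HIST2H2BD and HIST2H2BC (ENSG00000261716) have other coordinates in the deposited tables than in GENCODE 29. HIST2H2BD was counted on a model of 493 bases, while its poly(A)-type transcript runs 2976 bases past the loop. Its counts therefore leave out most of that transcript. The untested genes with an annotated poly(A)-type transcript were HIST2H2BB, HIST2H3A, HIST2H3C, HIST1H2BE, HIST1H4E, HIST1H2BH and HIST1H3G, and HIST1H2BE had the most counts among them, with sums of 25 in S371A, 18 in WT-1, 36 in S55A and 9 in WT-2. Among protein-coding members, 18 of the 36 modelled with a 3′ untranslated region were tested, against 2 of the 34 modelled without one. Counts of a gene whose model lacks its 3′ end leave out reads from there. Such a model also lacks the bases that were searched for AATAAA or ATTAAA. The 3 genes known from other work come from a list of 10, all tested in the S371A table. That list was chosen with earlier results of these data known, so the 3 add no support.

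**Figure D1:**
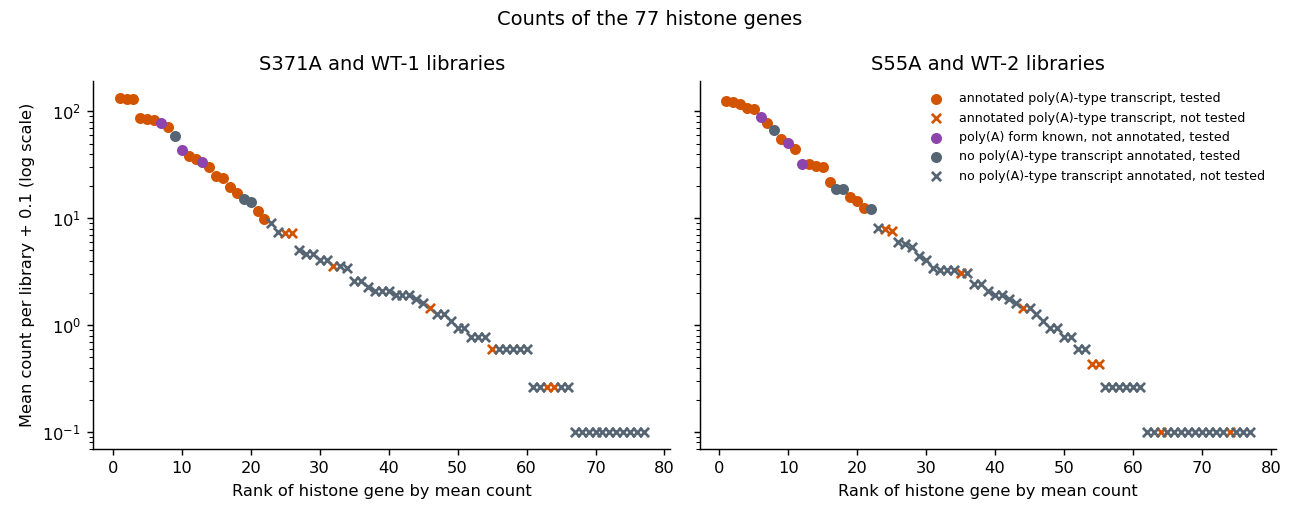
Mean count per library (log scale, 0.1 added so that zeros show) of each of the 77 histone genes, ranked, in the 6 libraries of the S371A and WT-1 table and the 6 of the S55A and WT-2 table; circles are genes tested and crosses genes not tested, coloured by transcript type. Tested genes are mostly those with an annotated (16 of 23) or otherwise known (3 of 3) polyadenylated form. The 3 come from a list chosen with earlier results of these data known and add no support.

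Levels of different genes were compared as CPM per kilobase of exonic sequence. The order depends on the gene models, which gave 381 exonic bases for HIST1H2BK, without a 3′ untranslated region, and 5477 for HIST1H2BN. Of the 50-base windows of HIST1H2BK, 74.1% also occur elsewhere. HIST1H2BK, an H2B gene, was the highest of the tested genes, at 15.3 CPM per kilobase in S371A, 9.87 in WT-1, 16.3 in S55A and 10.2 in WT-2. The order of the genes after it changed between groups. HIST3H2A, an H2A gene, had 8.32 CPM per kilobase in S371A, 9.71 in WT-1, 9.05 in S55A and 6.96 in WT-2, and HIST2H2AA4 had 8.55, 4.34, 8.67 and 4.5 CPM per kilobase in the same 4 groups. HIST1H2BD had 6.75 CPM per kilobase in S371A, 4.79 in WT-1, 7.01 in S55A and 2.97 in WT-2, next to 6.43, 2.18, 5.79 and 3.13 for HIST1H1C. HIST1H2BK stood clear of the next gene in S371A and in S55A, while HIST2H2AA4 and HIST3H2A in S371A, and HIST1H2BD and HIST1H1C in S371A, differed by less than their spread between libraries. The lowest of the tested genes by this measure included HIST3H2BB (0.358 in S371A, 0.406 in WT-1) and HIST1H2BN (0.529 in S371A, 0.334 in WT-1).

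Summed over all 77 genes, histone transcripts were more abundant in both mutants. The summed level was 91.2, 88.2 and 84.6 CPM in the S371A libraries, against 65.6, 65.5 and 68.9 CPM in the WT-1 libraries. In the second experiment it was 76.9, 87.9 and 110.1 CPM in the S55A libraries, against 50.8, 52.9 and 57.7 CPM in the WT-2 libraries. Neither mutant's libraries overlapped those of its wild type, and 3 libraries against 3 allow no exact p below 0.10, so no test is given. In bulk RNA, a larger share of cells expressing a gene and more RNA per cell cannot be told apart. The sums are dominated by the tested genes. The 55 untested genes of the S371A table summed to 6.51, 6.86 and 7.17 CPM in S371A libraries, against 4.8, 4.88 and 5.32 CPM in WT-1 libraries, again without overlap. In contrast, the 55 untested genes of the S55A table summed to 3.74, 5.29 and 7.03 CPM in S55A libraries, against 5.4, 4.93 and 4.98 CPM in WT-2 libraries, where the groups overlapped.

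Every histone class had a higher mean sum in both mutants, and the classes differed in how far the groups lay apart. H1 genes summed to 4.65 ± 0.873 CPM in S371A and 1.78 ± 0.651 in WT-1, and H2A genes to 26.8 ± 3.27 and 19.6 ± 1.0 CPM in the same groups. H2B genes summed to 35.5 ± 0.379 CPM in S371A and 29.8 ± 0.917 in WT-1. For H4 genes the S371A libraries lay between 12.4 and 15.5 CPM, all above the WT-1 libraries at 8.19 to 11.9 CPM, while for H3 genes the ranges met, at 6.72 to 7.85 CPM in S371A and 5.38 to 6.81 in WT-1. In S55A cells H1 genes summed to 4.14 ± 1.02 CPM, against 2.29 ± 0.255 in WT-2, and H2A genes to 25.0 ± 4.56 CPM, against 14.7 ± 2.24. H2B genes summed to 35.3 ± 7.32 CPM in S55A and 21.5 ± 0.557 in WT-2, H3 genes to 11 ± 1.41 and 6.24 ± 0.403, and H4 genes to 16.3 ± 3.48 and 8.99 ± 2.15 in the same groups. In all 5 classes every S55A library lay above every WT-2 library.

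**Figure D2:**
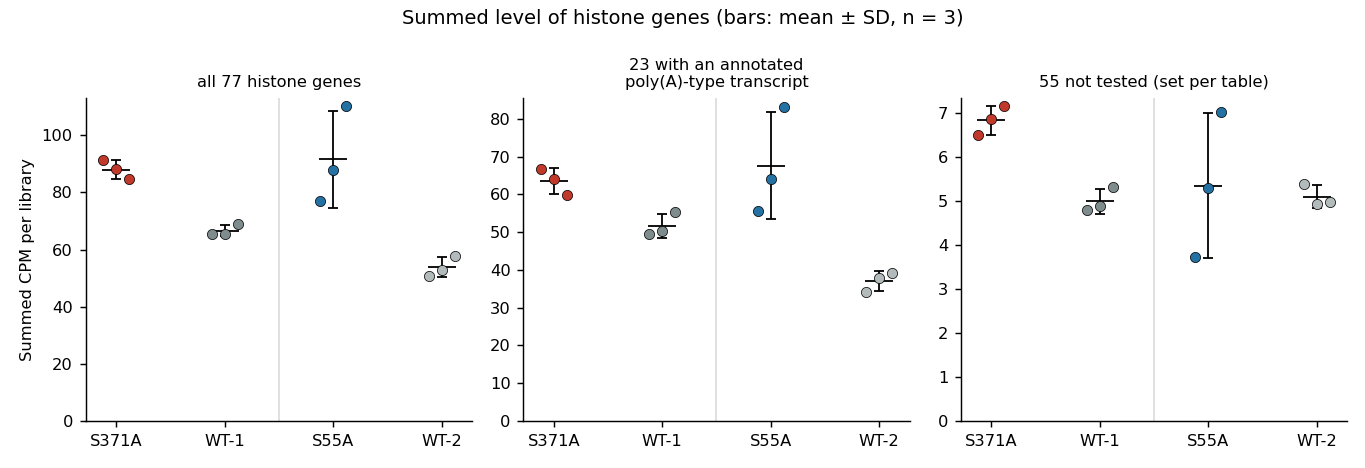
Summed CPM per library of all 77 histone genes (left), of the 23 with an annotated poly(A)-type transcript (middle) and of the 55 not tested in the table concerned (right) for S371A, WT-1, S55A and WT-2; points are libraries and bars the mean ± SD of 3. Both mutants lie above their wild types in the left and middle panels, and in the right panel the S55A libraries (3.74 to 7.03 CPM) spread across the WT-2 libraries (4.93 to 5.4 CPM).

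In S371A cells, 7 of the 22 tested histone genes rose and 0 fell by edgeR's quasi-likelihood test at an adjusted p below 0.05, where 7.05% of all 16235 tested genes were called higher and 5.53% lower. The 7 were HIST1H1C, HIST2H2AA4, HIST1H2AC, HIST1H2BC, HIST1H2BD, HIST1H2BK and HIST1H2BN. The median log2 fold change of the tested histone genes was 0.48, against -0.01 over all tested genes, and 18 of 22 were positive. For 11 of the 22 all S371A libraries lay above all WT-1 libraries, and for 0 below, against 18.2% and 18.3% of all tested genes. HIST2H2AA3 and HIST1H2BJ were above the level of the filter on low counts (0.621 CPM) in every S371A library and below it in at least 1 WT-1 library. Neither was called, but both are among the 18 and the 11 and enter the median. For these 2 genes a higher level in S371A was favoured by the filter, so they add no support. Without any filter, 48 of the 66 histone genes with a count had a positive and 18 a negative log2 fold change. Few of the calls held without single libraries. Leaving out S371A replicate 1, 2 or 3 left 1, 3 and 1 histone genes called, and leaving out WT-1 replicate 1, 2 or 3 left 1, 1 and 2, while calls over all genes fell to between 917 and 1576, against 2042 with all libraries.

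In S55A cells, 9 of the 22 tested histone genes rose and 0 fell, where 8.97% of all 15521 tested genes were called higher and 7.06% lower. These were HIST1H1C, HIST1H2BD, HIST1H2BK, HIST1H2BN, HIST2H2BE, HIST1H3E, HIST1H4H, HIST2H4A and HIST2H4B. The median log2 fold change of the tested histone genes was 0.66, against -0.01 over all tested genes, and 21 of 22 were positive. In 14 of them the S55A libraries all lay above the WT-2 libraries (19.5% of all tested genes), and in 1, HIST1H2BC, all below (18.7%). HIST1H3H was above the filter level (0.557 CPM) in every S55A library and below it in at least 1 WT-2 library. HIST1H2BC was above it in every WT-2 library and below it in at least 1 S55A library. The filter thus favoured a positive change for HIST1H3H and a negative one for HIST1H2BC. Without any filter, 39 of the 61 histone genes with a count had a positive and 22 a negative log2 fold change. S55A replicate 3 was the highest S55A library for 15 of the 22 genes. Leaving it out left 4 called, leaving out S55A replicate 1 or 2 left 8 and 3, and leaving out WT-2 replicate 1, 2 or 3 left 3, 4 and 3. Over all genes the fit without S55A replicate 3 called 2491, about as many as the 2488 with all libraries, and the other 5 called between 1344 and 1716. The fall in histone calls without S55A replicate 3 had no counterpart over all genes.

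The genes that rose in both mutants were HIST1H1C, HIST1H2BD, HIST1H2BK and HIST1H2BN, which make up 57.1% of the 7 S371A calls and 44.4% of the 9 S55A calls. The comparisons share no library. The matching shares over all genes were not worked out, so whether the overlap is larger for histone genes was not tested. In all, 12 genes were called in at least 1 mutant. Of these 1, HIST2H2AA4, was counted as the stem-loop type, and 11 have a polyadenylated form by annotation or other work. Of the 11, HIST1H1C and HIST1H2BK count only by other work, from the list that adds no support. Among all 23 tested genes 19 have such a form, 16 of them by annotation.

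**Figure D3:**
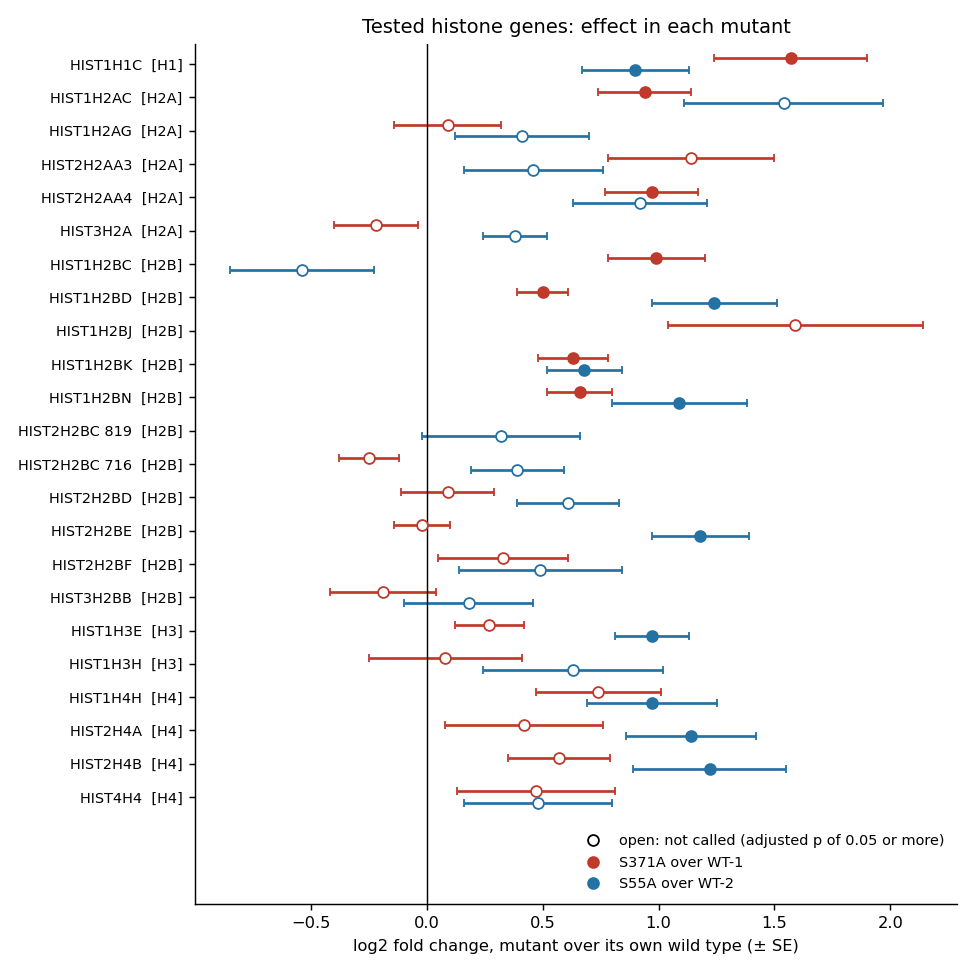
Log2 fold change of each mutant over its own wild type, with its standard error, for the 23 histone genes tested in at least 1 table, grouped by class (in brackets); filled points passed an edgeR adjusted p of 0.05. The digits after HIST2H2BC are the last of its 2 gene IDs. Most points lie right of 0, and HIST1H2BC and HIST2H2BE are placed apart in the 2 mutants.

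HIST1H1C, which encodes a linker histone, was the only H1 gene with enough counts to be tested, and it rose in both mutants. It lies at chr6:26055787-26056428 on the minus strand (GRCh38) as a single exon. Its level was 4.67, 4.51 and 3.2 CPM in the S371A libraries, against 1.6, 1.88 and 0.713 CPM in the WT-1 libraries. In the second experiment it was 3.29, 3.33 and 4.55 CPM in the S55A libraries, against 1.58, 2.39 and 2.07 CPM in the WT-2 libraries. The groups did not overlap in either experiment. The log2 fold change was 1.57 ± 0.33 in S371A (SE, edgeR adjusted p = 0.0275), the largest among the called histone genes, and 0.90 ± 0.23 in S55A (edgeR adjusted p = 0.0345).

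Among the H2A genes, HIST1H2AC and HIST2H2AA4 rose in S371A cells and none passed the test in S55A cells, and none was called in the test of the difference. HIST1H2AC, at chr6:26124145-26139116, had 12.4, 9.33 and 9.92 CPM in the S371A libraries, against 5.72, 4.06 and 6.59 CPM in the WT-1 libraries. The groups did not overlap, and the gene rose by 0.94 ± 0.20 on the log2 scale (edgeR adjusted p = 0.025). In S55A libraries HIST1H2AC had 6.08, 6.06 and 13.5 CPM, against 1.86, 3.12 and 3.91 CPM in WT-2 libraries. The groups again did not overlap, but S55A replicate 3 stood far above the other 2 and the log2 fold change of 1.54 ± 0.43 missed the threshold (edgeR adjusted p = 0.0573). HIST2H2AA4, at chr1:149851061-149851624, had 4.74, 3.95 and 5.76 CPM in S371A libraries, against 2.94, 2 and 2.41 CPM in WT-1 libraries (log2 fold change 0.97 ± 0.20, edgeR adjusted p = 0.026). In S55A libraries it had 5.02, 5.51 and 4.13 CPM, against 2.81, 1.38 and 3.44 CPM in WT-2 libraries, a change of 0.92 ± 0.29 that was not called (edgeR adjusted p = 0.0686).

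HIST2H2AA4 shares 97.1% of its 50-base windows with HIST2H2AA3, a near-identical copy on the same chromosome, so reads could have been split between them. Together they had 6.51, 4.94 and 6.66 CPM in S371A libraries, against 3.35, 2.62 and 3.01 CPM in WT-1 libraries. In S55A libraries the pair had 5.91, 7.04 and 5.37 CPM, against 3.65, 2.18 and 4.45 CPM in WT-2 libraries. Both mutants lay above their wild types without overlap when the copies were summed. On its own HIST2H2AA3 had a log2 fold change of 1.14 ± 0.36 in S371A (edgeR adjusted p = 0.0821) and 0.46 ± 0.30 in S55A (edgeR adjusted p = 0.335). The other H2A genes tested were not called: HIST3H2A had log2 fold changes of -0.22 in S371A and 0.38 in S55A, and HIST1H2AG 0.09 and 0.41.

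H2B genes supplied 4 calls in each mutant, and HIST1H2BD, HIST1H2BK and HIST1H2BN were called in both. HIST1H2BD, at chr6:26158146-26171349, had 5.45, 6.05 and 6.14 CPM in the S371A libraries, against 4.28, 4 and 4.23 CPM in the WT-1 libraries. In the S55A libraries it had 5.86, 4.2 and 8.27 CPM, against 2.87, 2.76 and 2.13 CPM in the WT-2 libraries. Neither pair of groups overlapped, and the log2 fold changes were 0.50 ± 0.11 in S371A (edgeR adjusted p = 0.0303) and 1.24 ± 0.27 in S55A (edgeR adjusted p = 0.0174). The 2 effects were not shown to differ, since a test of their difference did not call HIST1H2BD.

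HIST1H2BK had 6.16, 4.94 and 6.4 CPM in S371A libraries, against 3.35, 4.25 and 3.68 CPM in WT-1 libraries (log2 fold change 0.63 ± 0.15, edgeR adjusted p = 0.0399). It had 5.58, 6 and 7.08 CPM in S55A libraries, against 4.11, 3.7 and 3.79 CPM in WT-2 libraries (0.68 ± 0.16, edgeR adjusted p = 0.0214). Here the 2 mutants moved by nearly the same amount, with no overlap of groups in either. Copies of 74.1% of its 50-base windows exist elsewhere, 61.4% in H2BFS, so its counts are uncertain. HIST1H2BN had 3.04, 2.9 and 2.75 CPM in S371A libraries, against 1.86, 1.81 and 1.81 CPM in WT-1 libraries (0.66 ± 0.14, edgeR adjusted p = 0.024). In S55A libraries it had 2.29, 3.65 and 4.19 CPM, against 1.52, 1.23 and 1.96 CPM in WT-2 libraries (1.09 ± 0.29, edgeR adjusted p = 0.0354). The WT-1 libraries of HIST1H2BN were nearly equal, and all mutant libraries lay above their wild types. It overlaps HIST1H2AK on the opposite strand over 7.2% of its exonic bases, and whether strand was used in counting is not given in the sources used here.

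HIST2H2BE and HIST1H2BC were the histone genes whose effects differed between the mutants. HIST2H2BE had 3.75, 4.51 and 4.35 CPM in S371A libraries, against 4.07, 4.38 and 4.39 CPM in WT-1 libraries, where the groups overlapped (log2 fold change -0.02 ± 0.12, edgeR adjusted p = 0.956). In S55A libraries it had 3.79, 4.64 and 4.29 CPM, against 2.31, 1.81 and 1.48 CPM in WT-2 libraries, a change of 1.18 ± 0.21 (edgeR adjusted p = 0.00908). The S55A libraries all lay above the WT-2 libraries. The difference of the effects, S371A minus S55A, was -1.20 (edgeR adjusted p = 0.00685, over 16666 genes of which 12.5% were called in either direction). The gene is bounded differently in the 2 tables, as chr1:149884459-149886652 in the S371A table and chr1:149842204-149886652 in the S55A table, and the wider model spans other histone genes. The mutant and the gene model cannot be told apart for this difference. Within the S55A table the model is the same in all 6 libraries. It reaches into HIST2H2AA3 (chr1:149842188-149842736), so the S55A and WT-2 counts of HIST2H2BE may include reads of another histone gene. Whether they do was not tested.

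HIST1H2BC, at chr6:26114873-26123926, rose in S371A, with 1.49, 1.48 and 1.28 CPM in S371A libraries, against 0.619, 0.813 and 0.713 CPM in WT-1 libraries (log2 fold change 0.99 ± 0.21, edgeR adjusted p = 0.0273). In S55A libraries it had 0.446, 0.709 and 0.62 CPM, against 0.844, 0.87 and 0.889 CPM in WT-2 libraries (-0.54 ± 0.31, edgeR adjusted p = 0.275). The difference of the effects, S371A minus S55A, was 1.53 (edgeR adjusted p = 0.0128), and its adjusted p reached 0.0557 among the alternatives tried. All of these levels correspond to few reads, close to the filter on low counts. The model of HIST1H2BC is the same in both tables, but that of its neighbour HIST1H2BB is not. HIST1H2BB is chr6:26043277-26043657 in the S371A table and chr6:26043227-26123904 in the S55A table, where it ends inside HIST1H2BC. The mutant and this change of model cannot be told apart for the difference. Whether it alters the HIST1H2BC counts was not tested.

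The remaining H2B genes tested were not called in either mutant. Log2 fold changes were 0.33 in S371A and 0.49 in S55A for HIST2H2BF, 0.09 and 0.61 for HIST2H2BD, and -0.19 and 0.18 for HIST3H2BB. HIST2H2BC (ENSG00000261716) had -0.25 in S371A and 0.39 in S55A, and HIST2H2BC (ENSG00000203819), tested in the S55A table only, had 0.32. HIST1H2BJ, tested in the S371A table only, had 1.59 ± 0.55 (edgeR adjusted p = 0.105), with replicate 3 of S371A at 1.86 CPM against 0.637 and 0.741 CPM in the other 2.

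Calls of H3 and H4 genes came from S55A cells alone, although none of these genes was called in the test of the difference between the mutants' effects. HIST1H3E, which encodes an H3 and lies at chr6:26224199-26227473, had 7.81, 9.11 and 10.3 CPM in S55A libraries, against 4.11, 4.93 and 4.86 CPM in WT-2 libraries. All S55A libraries stood clear of all WT-2 libraries (log2 fold change 0.97 ± 0.16, edgeR adjusted p = 0.00576), and the call was kept under all 13 alternatives tried. In S371A libraries it had 6.3, 5.99 and 4.8 CPM, against 4.54, 4.31 and 5.32 CPM in WT-1 libraries, where the groups overlapped (0.27 ± 0.15, edgeR adjusted p = 0.288). No stem-loop motif was found in its models. HIST1H3H, the other H3 gene tested, had log2 fold changes of 0.08 in S371A and 0.63 in S55A and was not called.

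HIST2H4A and HIST2H4B both encode H4 and share 97.5% of HIST2H4A's and 97.2% of HIST2H4B's sequence windows, so their calls are not independent. HIST2H4A had 6.75, 10.4 and 10.1 CPM in S55A libraries, against 2.76, 3.92 and 5.63 CPM in WT-2 libraries (log2 fold change 1.14 ± 0.28, edgeR adjusted p = 0.0294). HIST2H4B had 1.73, 2.29 and 3.15 CPM in S55A libraries, against 0.901, 1.45 and 0.77 CPM in WT-2 libraries (1.22 ± 0.33, edgeR adjusted p = 0.0404). Both rose without overlap of the groups. Summed, the pair had 8.48, 12.7 and 13.2 CPM in S55A libraries, against 3.66, 5.37 and 6.4 CPM in WT-2 libraries, and 7.22, 9.08 and 6.85 CPM in S371A libraries, against 3.81, 5.06 and 8.02 CPM in WT-1 libraries. The S371A groups overlapped for the pair, since WT-1 replicate 3 was high, and neither gene was called there (0.42 and 0.57). HIST1H4H, another H4 gene at chr6:26277609-26285638, had 1.23, 1.8 and 1.86 CPM in S55A libraries, against 0.788, 0.87 and 0.83 CPM in WT-2 libraries (0.97 ± 0.28, edgeR adjusted p = 0.0461). In S371A libraries it had 1.98, 2.04 and 1.47 CPM, against 1.29, 0.688 and 1.26 CPM in WT-1 libraries, a change of 0.74 ± 0.27 that was not called (edgeR adjusted p = 0.126). HIST4H4 had log2 fold changes of 0.47 and 0.48 in S371A and S55A, neither called.

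**Figure D4:**
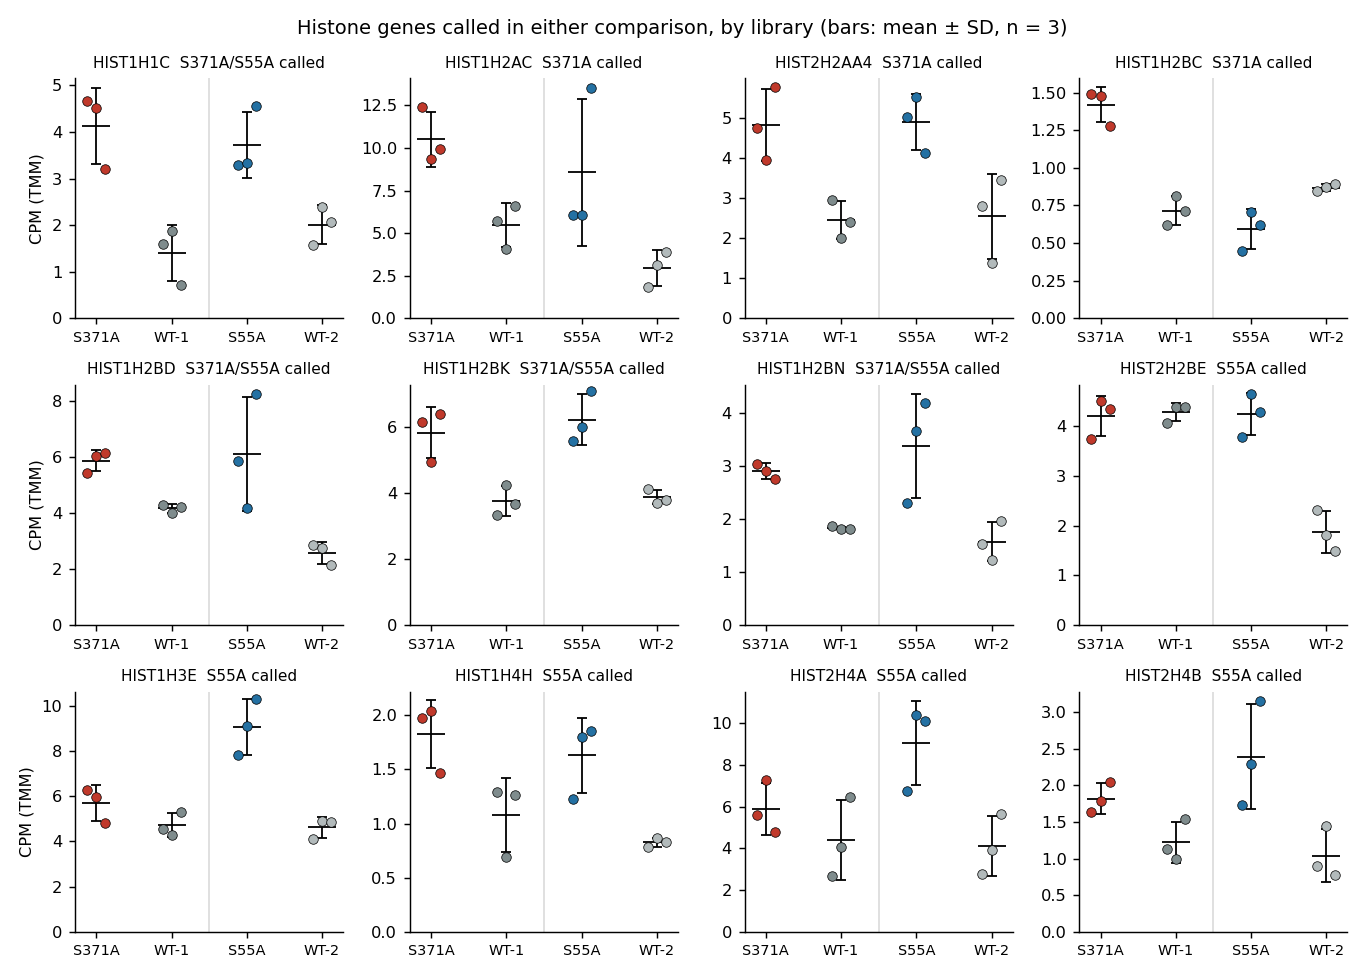
CPM in each library of the 12 histone genes called in at least 1 mutant, for S371A, WT-1, S55A and WT-2; points are libraries, bars the mean ± SD of 3, and each title gives the mutants in which the gene was called. The S371A and S55A tables were scaled separately. HIST2H2BE lies apart from its wild type in S55A only, and HIST1H2BC is the 1 gene with S55A below WT-2.

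Many histone genes sit head to head on opposite strands, so that an H2A and an H2B gene share a short stretch of upstream DNA. In this set 13 divergent pairs lay within 500 bases of each other and involved 25 genes, and in 3 of them both genes were tested in both tables. These were HIST1H2BC with HIST1H2AC (218 bases apart), HIST3H2A with HIST3H2BB (233) and HIST2H2AA3 with HIST2H2BD (304). HIST1H2BC and HIST1H2AC had log2 fold changes of 0.99 and 0.94 in S371A, both called, and of -0.54 and 1.54 in S55A, neither called. HIST3H2A and HIST3H2BB had -0.22 and -0.19 in S371A and 0.38 and 0.18 in S55A.

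The upstream DNA was also searched for known histone promoter elements. RefSeq promoters (GRCh38.p14) were matched for 61 of the 77 genes, and the 250 bases before each start were searched on both strands. The CCAAT box occurred in 51 of 61 (83.6%, against 32% of 35116 promoters) and TATAAA in 40 (65.6%, against 10.7%). ATGCAAAT, the octamer known from H2B promoters, occurred in 26 of 61 (42.6%, against 1.63%), 14 of them among the 18 H2B genes matched. AAACACA, the element known from H1 promoters, occurred in 6 of 61 (9.84%, against 4.82%), and these were all 6 H1 genes. A match says only that the letters are present. Promoters are shown for HIST1H1C, called in both mutants, and for the stretch shared by HIST1H2BC and HIST1H2AC, of which both were called in S371A and neither in S55A. Capitals mark matches to the CCAAT box, the H1 element and the octamer on either strand. TATAAA occurred in neither printed stretch. It did occur in the 250 bases before the RefSeq starts of HIST1H2BC and HIST1H2AC, so there the match is not wholly within the printed stretch.
HIST1H1C: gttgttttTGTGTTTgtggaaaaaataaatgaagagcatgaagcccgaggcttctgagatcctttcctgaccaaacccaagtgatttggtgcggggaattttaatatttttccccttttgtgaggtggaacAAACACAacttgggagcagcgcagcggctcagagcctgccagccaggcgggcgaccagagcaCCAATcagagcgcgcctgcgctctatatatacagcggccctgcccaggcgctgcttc
HIST1H2BC and HIST1H2AC: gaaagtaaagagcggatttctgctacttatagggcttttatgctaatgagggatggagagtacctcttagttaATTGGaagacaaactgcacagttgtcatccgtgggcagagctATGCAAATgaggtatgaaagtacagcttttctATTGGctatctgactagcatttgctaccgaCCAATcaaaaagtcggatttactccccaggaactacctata
The HIST1H1C promoter is chr6:26056471-26056720, read on the minus strand in the direction of the gene. The shared stretch is chr6:26123927-26124144, read on the plus strand from HIST1H2BC towards HIST1H2AC, and is the whole interval between the models.

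Of the histone mRNA regulators listed, none rose in either mutant. SLBP, which binds the stem-loop, was 95.0 ± 4.46 CPM in S371A and 97.9 ± 1.78 in WT-1 (log2 fold change -0.04 ± 0.05, edgeR adjusted p = 0.618), and 90.7 ± 6.02 in S55A and 108.2 ± 14.4 in WT-2 (-0.25 ± 0.10, edgeR adjusted p = 0.119). NPAT, the histone gene transcription co-activator that cyclin E with CDK2 phosphorylates, was 32.5 ± 7.98 CPM in S371A and 35.3 ± 2.99 in WT-1 (edgeR adjusted p = 0.717), and fell in S55A, to 33.0 ± 1.47 CPM against 44.1 ± 6.7 in WT-2 (-0.42 ± 0.12, edgeR adjusted p = 0.0431). Of 21 histone mRNA regulators tested, 0 rose and 2 fell in S371A (median 0.07), where 5.53% of all genes were called lower, namely CPSF3, the histone pre-mRNA nuclease, by -0.20, and NCBP1, a cap-binding subunit, by -0.18. In S55A 0 rose and 7 fell (median -0.16), where 7.06% of all genes were called lower. CASP8AP2, a protein of the histone locus body, changed by -0.85, and the cyclin E genes CCNE2 and CCNE1 by -0.74 and -0.59.

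Histone genes are normally made together with other S phase genes. Of 44 S phase genes tested, 0 rose and 20 fell in S55A cells (median -0.31), where 7.06% of all genes were called lower. CLSPN, a replication checkpoint protein, was 38.1 ± 4.12 CPM in S55A and 63.2 ± 2.15 in WT-2, and POLE, the catalytic subunit of a replicative polymerase, 85.0 ± 1.99 and 118.7 ± 5.47 in the same groups. In S371A 2 rose, CLSPN by 0.34 and CDC6, a replication licensing factor, by 0.26, and 0 fell (median 0.05). Of 25 G2/M genes, 10 rose and 0 fell in S371A (7.05% of all genes higher, 5.53% lower), and 0 rose and 6 fell in S55A (8.97% higher, 7.06% lower). Beside the same shares, among 20 cell cycle inhibitors and genes linked to arrest, 7 rose and 1 fell in S371A and 3 rose and 2 fell in S55A; GADD45B and BTG1 rose in both, and CDKN1A changed by 0.28 in S371A and -0.37 in S55A. The part of cell cycle position in the histone values was not tested.

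Replication-independent histone genes are made throughout the cycle and mostly end in ordinary poly(A) tails. Their counts of calls, 1 in each direction in each mutant, are too few to set apart from the shares over all genes (7.05% higher and 5.53% lower in S371A, 8.97% and 7.06% in S55A). Of 11 tested in S371A 1 rose and 1 fell (median 0.01): H2AFX, whose mRNA can also end at a stem-loop and whose models hold the motif, by 0.35, and H2AFY2, a macroH2A gene, by -0.35. Of 10 tested in S55A 1 rose and 1 fell (median -0.02): H1F0, a linker histone known from non-dividing cells, was 221.1 ± 41.8 CPM in S55A and 143.2 ± 2.49 in WT-2 (0.63 ± 0.12, edgeR adjusted p = 0.0141), and H2AFZ changed by -0.34. Of 28 histone chaperones and assembly factors, 6 rose and 2 fell in S371A, and 1 rose and 8 fell in S55A, beside the same shares over all genes. NASP, a carrier of soluble H3 and H4, was 109.3 ± 2.11 CPM in S55A and 153.6 ± 4.85 in WT-2 (-0.49 ± 0.06, edgeR adjusted p = 0.0016), and CHAF1A, a subunit of the replication-linked assembly factor CAF-1, changed by 0.38 in S371A.

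**Figure D5:**
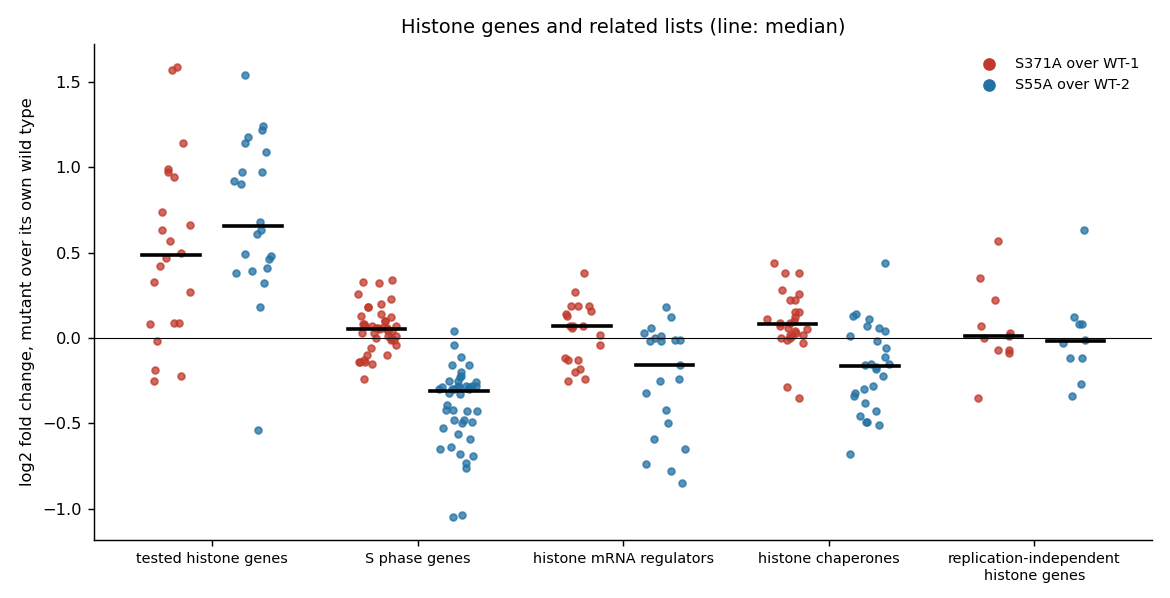
Log2 fold change of each mutant over its own wild type for the tested histone genes and 4 related gene lists; each point is 1 gene and the black line the median. The histone genes' medians are 0.48 in S371A and 0.66 in S55A, while the S phase list has medians of 0.05 and -0.31.

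Among RNAs without a poly(A) tail, few had enough counts to be tested. A list of small nuclear, 7SK, signal recognition particle and related RNAs summed to 28.9 to 31.7 CPM in S371A libraries, against 39.7 to 42.0 CPM in WT-1 libraries, and 2 of 7 tested fell, RN7SK by -0.79 and RN7SL2 by -0.47, while 0 rose and SNORD17 (0.06) and SNORA73B (-0.14) were not called. In S55A libraries the list summed to 16.4 to 25.7 CPM, against 20.1 to 46.4 CPM in WT-2 libraries, where the groups overlapped, and 1 of 3 tested fell, SNORD17 by -0.72. Over all genes 5.53% were called lower in S371A and 7.06% in S55A. Genes of the poly(A) machinery fell for 7 of 16 in S371A and 2 of 16 in S55A, with 0 rising in either; PABPC1, the cytoplasmic poly(A)-binding protein, was 968.4 ± 59.7 CPM in S371A and 1184.6 ± 32.8 in WT-1. The part of RNA selection in the histone values was not tested.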

How the data were processed

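RNA-seq counts and FPKM per gene, deposited by the authors in 1 table for S371A and WT-1 and 1 for S55A and WT-2, were used. Tools listed in the submitters' processing notes are HISAT2 2.0.4, StringTie 1.3.0, CASAVA and edgeR, without their roles. No source used here gives the counting step, annotation release or strand setting. Library numbers in the column headers were read as the replicate numbers of the titles. Of the histone genes, 74 of 77 had the same coordinates in both tables and 74 those of GENCODE 29.

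The deposited counts were tested with edgeR 4.0.16 (R 4.3.3): filterByExpr, TMM factors, robust quasi-likelihood fit, Benjamini-Hochberg adjustment over all genes tested, threshold 0.05. CPM use TMM-scaled totals. The difference of effects was fitted on all 12 libraries. Scripts were tested on simulated data. The deposited FPKM values were not used for levels. In the S371A table the length they divide by equals, for 17 of 23 tested histone genes, the summed length of all transcripts in GENCODE 29. For 9 of these, each with 1 transcript, that sum is also the length of the merged exons. Genes outside the 17 matched neither length. A summed length lowers genes with many transcripts, so CPM per kilobase of merged exons was used.

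Every histone gene tested in either table is named. From other lists, SLBP, NPAT, PHGDH and genes among the 3 of smallest p per comparison are named, besides cell type markers named as such. The members and lists were chosen with earlier results of these data known. The alternatives were DESeq2 1.42.0, limma-voom (limma 3.58.1), upper-quartile or RLE factors, 2 other filters, a replicate block and leaving out each library.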

Additional observations from a re-analysis of the deposited data

Results flagged for a closer look

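The effects of the mutants, each against its own wild type, differed by a test of the difference (S371A minus S55A, log2, edgeR adjusted over all genes) for 2 histone genes. HIST2H2BE differed by -1.20 (edgeR adjusted p = 0.00685) and HIST1H2BC by 1.53 (edgeR adjusted p = 0.0128). The model of HIST2H2BE is not the same in both tables. HIST1H2BC is close to the filter on low counts, and only in the S55A table does the model of HIST1H2BB reach into it.

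Of the genes of the other lists chosen by smallest p, the difference was also called for 23. Over all genes tested it was called for 12.5%. Choosing genes by smallest p in the single comparisons favours a called difference, so the count of 23 is a listing only. Among S phase genes it was 1.07 for CLSPN, 0.74 for UNG, 0.64 for RFC2, 0.47 for POLE and 0.38 for CDC6. Histone mRNA regulators gave 0.92 for CASP8AP2, 0.78 for CCNE1 and 0.61 for CCNE2. Histone chaperones gave 0.95 for HJURP, 0.71 for ATRX, 0.61 for NASP and 0.56 for CHAF1A. H1F0, the replication-independent linker histone, gave -0.55. G2/M genes gave 2.61 for CENPE, 1.21 for ASPM, 0.87 for CENPF, 0.48 for CDC20 and 0.35 for TPX2. CDKN1A, a cell cycle inhibitor, gave 0.66. Poly(A) machinery genes gave 0.68 for CSTF3 and -0.32 for PAPOLA. The markers EPCAM and PDGFRB gave 0.21 and -1. The adjusted p-values of these 23 lay between 3.15e-07 (CENPE) and 0.0466 (EPCAM). Groups of 3 libraries were not searched for outlying values by a test.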

How the results depend on the processing

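With upper-quartile or RLE factors, limma-voom, no filter or a minimum of 1 CPM in 3 libraries, histone genes called in S371A numbered 6 to 7 and in S55A 7 to 9. DESeq2 called 3 in S371A, 10 in S55A and 1 in the difference of the effects (against 7, 9 and 2). Same-numbered libraries did not deviate together (correlations of -0.064 to -0.002). No pairing by number was seen, though such correlations cannot exclude one. A replicate block left 3 called in S371A, 6 in S55A and 1 in the difference, HIST2H2BE. Leaving out 1 library left 1 to 3 in S371A, 3 to 8 in S55A and 2 to 3 in the difference; 0 histone genes were called lower in either mutant under any of these. HIST2H2BE and HIST1H3E kept their S55A calls in 13 of 13 alternatives, and no S371A call did, HIST1H1C with 10 of 13 coming closest. All 13 rest on the same wider model of HIST2H2BE. Of 998 single-gene values, 887 kept both their sign and their side of the threshold, 23 changed sign with no call on either side, 82 lost a call, 6 gained one and 0 called values reversed. The cause was not tested. At these counts 54 of 77 genes could not be tested, 10 of them with 0 counts in all libraries.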
